A study of Homo sapiens with 3 samples.

Results

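Endoplasmic reticulum (ER) chaperones and foldases are the proteins that bind and fold newly made secretory and membrane proteins. A list of 10 of their genes was followed by gene symbol: HSPA5, HYOU1, MANF, SDF2L1, HSP90B1, CALR, CANX, PDIA4, PDIA6 and CRELD2. All 10 were found among the 17329 genes of the deposited table. Polyadenylated RNA came from Jurkat cells, an established human line of T-cell acute lymphoblastic leukaemia, after 48 hours of culture. Cells labelled oxamate+lactate received sodium oxamate at 50 mM together with L-sodium lactate at 10 mM, those labelled oxamate received the 50 mM oxamate alone, and control cells were kept in standard medium. The base medium was RPMI with fetal bovine serum. Oxamate inhibits lactate dehydrogenase, and the study asked how lactylation of histone H3, a mark fed by lactate, relates to transcription. Neither lactate nor the mark is measured here. No separate culture with lactate alone, and none with another sodium salt, is among the samples.

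There was 1 library per condition, so the differences have no replicate check and no p-value, and "higher" and "lower" compare single libraries of 1 cell line. The values are normalized read counts made by the authors and rounded to whole numbers. They summed over genes to 8171633 in oxamate+lactate, 8821115 in oxamate and 8220199 in control, and the reads behind them are unknown. In bulk RNA, fewer cells that express a gene and less RNA of it per cell cannot be told apart. As a gauge of technical spread, 18 ERCC spike-in RNAs with a mean of at least 100 were used; these were added after RNA extraction and do not carry the spread between cultures. All 10 listed T-lineage markers were present and 9 had a mean of at least 50, with sums of 17376 in oxamate+lactate, 18045 in oxamate and 17217 in control. Of 9 markers of other lineages, 3 were present and 2 had a mean of at least 50. These 3 summed to 245 in oxamate+lactate, 269 in oxamate and 289 in control. Most of that was COL1A1, with 165 in oxamate+lactate, 202 in oxamate and 202 in control.

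Proteins enter the ER unfolded, and HSPA5 (BiP), the HSP70 of this compartment, holds their hydrophobic stretches until they fold or are sent for degradation. When unfolded proteins accumulate, the sensors ATF6, IRE1 (ERN1) and PERK (EIF2AK3) start the unfolded protein response. ATF6 and XBP1, the factor downstream of IRE1, raise transcription of the chaperones, whereas PERK acts through ATF4 and DDIT3 (CHOP). ATF6 acts through ER stress elements, ERSE and ERSE-II, which pair a CCAAT box, the site of the factor NF-Y, with CCACG.

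The promoters of the list are shown because the same element recurs in most of them. They are RefSeq windows of assembly GRCh38.p14, from 250 bases before to 50 after each annotated start, whereas the submitters' processing notes name hg19. The 10 genes had 15 windows, since CANX, PDIA4 and PDIA6 have several starts. ERSE was searched as CCAAT followed, after any 9 bases, by CCACG. ERSE-II was searched as ATTGG followed, after any 1 base, by the same ending. Both strands were searched, and capitals mark the fixed letters. Each line is read 5′ to 3′ in the direction of the gene, and for PDIA6 the second of 2 windows is given.
HSPA5, chr9:125241344-125241593, minus strand: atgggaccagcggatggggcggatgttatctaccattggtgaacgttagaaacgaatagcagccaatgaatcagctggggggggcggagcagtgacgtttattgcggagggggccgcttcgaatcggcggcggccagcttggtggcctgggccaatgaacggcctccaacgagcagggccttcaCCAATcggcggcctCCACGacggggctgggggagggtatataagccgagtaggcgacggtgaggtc
HSP90B1, chr12:103930206-103930349, plus strand: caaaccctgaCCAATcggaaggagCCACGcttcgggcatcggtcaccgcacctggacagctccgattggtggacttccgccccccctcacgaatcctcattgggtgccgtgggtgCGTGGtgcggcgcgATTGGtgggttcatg
CALR, chr19:12938374-12938412, plus strand: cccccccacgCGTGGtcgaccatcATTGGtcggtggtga
CANX, chr5:179698768-179698806, plus strand: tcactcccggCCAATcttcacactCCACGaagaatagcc
PDIA6, chr2:10812843-10812881, minus strand: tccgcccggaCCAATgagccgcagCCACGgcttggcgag
CRELD2, chr22:49918544-49918582, plus strand: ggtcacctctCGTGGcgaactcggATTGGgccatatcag
HYOU1, chr11:119057264-119057400, minus strand: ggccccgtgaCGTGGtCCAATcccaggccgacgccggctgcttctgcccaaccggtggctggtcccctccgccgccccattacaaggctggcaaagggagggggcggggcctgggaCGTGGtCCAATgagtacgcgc
SDF2L1, chr22:21642104-21642134, plus strand: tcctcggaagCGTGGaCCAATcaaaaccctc

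ERSE was present in 6 of the 10 genes, namely HSPA5, HSP90B1, CALR, CANX, PDIA6 and CRELD2, with 2 copies in HSP90B1. Over all genes with a window, 0.0916% held it (25 of 27305 genes), and by window 0.0769% (27 of 35116). The 6 genes are themselves among those 25. ERSE-II was present in HYOU1, in 2 copies, and in SDF2L1, against 0.0696% of all genes and 0.0541% of all windows. The HYOU1 copy farther from the start overlaps the letters TGACGTGG, the UPRE motif, which 0.729% of windows held. In the single HSPA5 window, ERSE lay 66 to 48 bases before the start.

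PDIA4 and MANF held neither element in these windows, which says only that these exact letters are absent there. Their windows are shown for the elements' parts, with CCAAT and the ending CCACG in capitals on either strand, and for PDIA4 the first of 2 windows is given.
PDIA4, chr7:149028491-149028740, minus strand: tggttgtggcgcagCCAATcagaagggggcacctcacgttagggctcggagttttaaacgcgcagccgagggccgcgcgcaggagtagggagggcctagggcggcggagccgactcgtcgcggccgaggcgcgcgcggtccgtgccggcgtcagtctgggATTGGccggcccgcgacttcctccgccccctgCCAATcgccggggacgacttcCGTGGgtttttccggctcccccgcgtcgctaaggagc
MANF, chr3:51385041-51385290, plus strand: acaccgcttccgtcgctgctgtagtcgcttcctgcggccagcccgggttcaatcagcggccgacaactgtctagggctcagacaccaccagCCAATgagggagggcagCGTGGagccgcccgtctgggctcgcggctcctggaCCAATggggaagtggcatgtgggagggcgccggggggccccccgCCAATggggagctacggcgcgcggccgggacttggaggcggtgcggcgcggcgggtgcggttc

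All 10 genes held CCAAT in at least 1 window, against 39.7% of all genes and 34.6% of all windows. All 10 also held CCACG, against 42.1% of all genes and 38.1% of all windows. ERSE contains both of these shorter strings, so the counts are not separate. A match of letters is a description and not a bound site. No binding was measured.

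**Figure D1:**
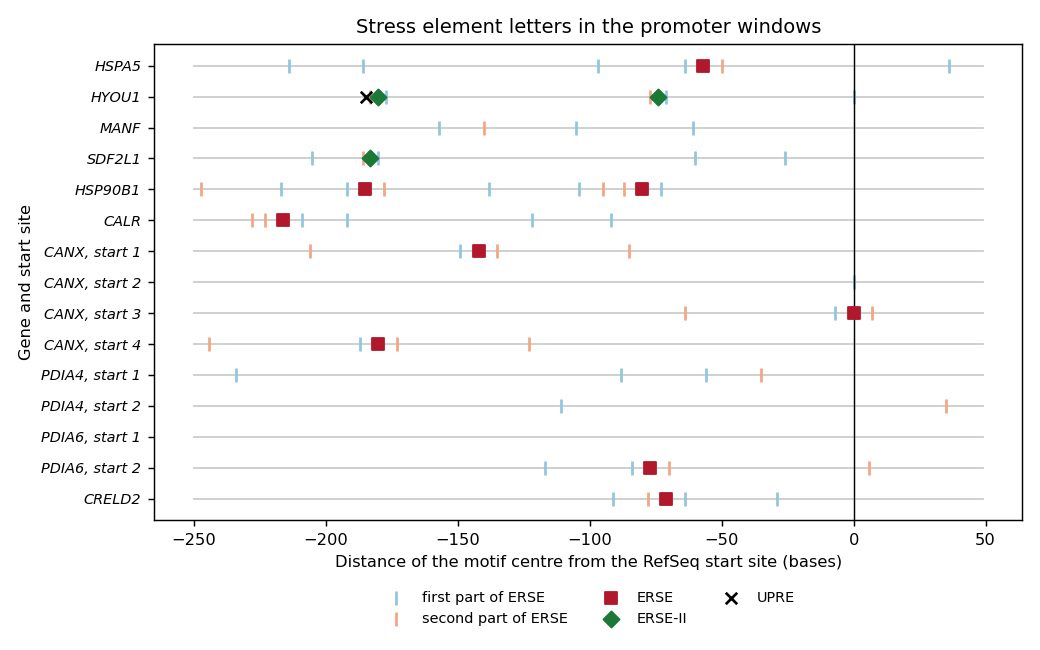
Positions of motif letters in the 15 promoter windows of the 10 genes. The horizontal axis is the distance of the motif centre from the RefSeq start in bases, each row is 1 start site, and symbols mark ERSE, ERSE-II, UPRE and, as ticks, the parts of ERSE (also where they lie inside it). PDIA4 and MANF have ticks only.

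In oxamate, 9 of the 10 genes had the highest value of the 3 libraries, against 50.8% of all genes with a mean over the libraries of at least 50 (the floor used below; 12292 genes passed it, all 10 members among them). The exception was CANX. The deposited values of 8 members in oxamate+lactate lay below oxamate and above control, an order that 35.1% of all genes had. The oxamate+lactate library enters both steps of that order. The 10 values summed to 24594 in oxamate+lactate, 29105 in oxamate and 21498 in control, which is 0.301% of all gene values in oxamate+lactate, 0.33% in oxamate and 0.262% in control.

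**Figure D2:**
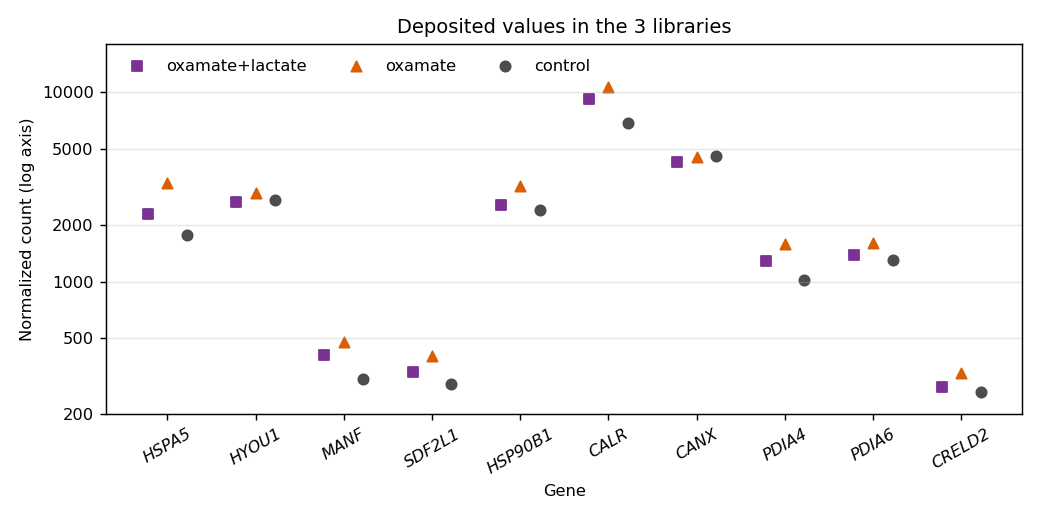
Deposited normalized counts of the 10 genes on a log axis, with 1 point per library (squares oxamate+lactate, triangles oxamate, circles control). Genes run from the HSP70 system on the left to the disulphide isomerases on the right. The triangle is the highest point for every gene except CANX.

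HSPA5 had the largest difference of the list. It had 2278 normalized counts in oxamate+lactate, 3325 in oxamate and 1767 in control. The oxamate library stood well above both others, 1.88-fold over control. On the log2(value + 1) scale, used for all ratios here, this was 0.91 for oxamate against control, at percentile 98.3 of all genes, and -0.55 for oxamate+lactate against oxamate. Oxamate+lactate against control was 0.37.

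The other genes of the BiP machinery had smaller ratios of oxamate against control than HSPA5. HYOU1 (GRP170), the large HSP70 relative that exchanges nucleotide on BiP, had 2641 in oxamate+lactate, 2931 in oxamate and 2697 in control. All 3 libraries lay close together, with a log2 ratio of 0.12 for oxamate against control. Its ratio of oxamate+lactate against control was -0.03 as deposited and 0.04 with equal ERCC sums. MANF, a small ER protein that binds BiP and is also secreted, had 408 in oxamate+lactate, 480 in oxamate and 307 in control. Both treated libraries were above control, with 0.64 for oxamate against control and 0.41 for oxamate+lactate against control. SDF2L1, a partner of the BiP co-chaperone DNAJB11, had 331 in oxamate+lactate, 403 in oxamate and 289 in control. Its log2 ratio of oxamate against control was 0.48.

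HSP90B1 (GRP94), the HSP90 of the ER, had 2546 in oxamate+lactate, 3195 in oxamate and 2399 in control. The oxamate value stood above both others, which were close to each other (log2 ratios of 0.41 for oxamate against control, -0.33 for oxamate+lactate against oxamate and 0.09 for oxamate+lactate against control). HSP90B1 shares exon positions in GENCODE 29 with C12orf73 and the pseudogene TTC41P on the other strand, and with a microRNA gene on its own. Since strand is not marked by the kit, reads from shared positions cannot be told apart; C12orf73 was listed at 139 in oxamate+lactate, 153 in oxamate and 173 in control.

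The lectin chaperones, which hold glycoproteins through their trimmed sugar chains, differed from each other. CALR (calreticulin), soluble in the ER lumen, had 9171 in oxamate+lactate, 10728 in oxamate and 6860 in control. Both treated libraries were above control, with a log2 ratio of 0.42 for oxamate+lactate and 0.65 for oxamate. CANX (calnexin), its membrane-bound relative, had 4285 in oxamate+lactate, 4549 in oxamate and 4595 in control. Its ratio of oxamate against control was -0.01 and became 0.10 after the GC adjustment described below, so it has no firm sign. CANX overlaps CBY3, which was listed at 21 in oxamate+lactate, 30 in oxamate and 19 in control.

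The disulphide isomerases form and reshuffle disulphide bonds. PDIA4 (ERp72) had 1277 in oxamate+lactate, 1571 in oxamate and 1021 in control, with a log2 ratio of 0.62 for oxamate against control and 0.32 for oxamate+lactate against control. PDIA6 (P5), which works with BiP, had 1379 in oxamate+lactate, 1596 in oxamate and 1302 in control, with a smaller ratio of 0.29 for oxamate against control. CRELD2, an ER stress-induced protein that binds client proteins through disulphides, had 278 in oxamate+lactate, 327 in oxamate and 261 in control (0.32 for oxamate against control). PDIA6 overlaps ATP6V1C2 (577 in oxamate+lactate, 678 in oxamate and 595 in control) and CRELD2 overlaps ALG12 (394 in oxamate+lactate, 436 in oxamate and 364 in control), both on the other strand. CALR and HYOU1 overlap antisense genes in the annotation, which could add reads to them in the same way, and HSPA5, MANF, PDIA4 and SDF2L1 overlap none.

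For oxamate against control, 4 of the 10 members were at least 1.5-fold higher (HSPA5, CALR, MANF and PDIA4), against 7.48% of all genes. In the lower direction 0 members passed that fold, against 3.98%. CALR, MANF and PDIA4 lay just past that fold, at 1.56-fold, 1.56-fold and 1.54-fold. With the libraries scaled to equal totals, with ratios taken relative to the median of all genes, or relative to genes of like GC content, only HSPA5 stayed past it, against 4.63%, 5.16% and 5.42% of all genes. The members' median log2 ratio was 0.45, and that of all genes was 0.08. The ERCC RNAs ranged from -0.24 to 0.29, with an SD of 0.13, and 7 members lay above their highest value. PDIA6, HYOU1 and CANX lay inside that range. PDIA6, just under the highest ERCC ratio, was at percentile 74.4 of all genes, so many other genes also lay above the ERCC range.

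For oxamate+lactate against oxamate, 0 members were 1.5-fold higher or lower, against 0.252% and 0.903% of all genes. All 10 ratios were below 0 as deposited, from -0.55 for HSPA5 to -0.09 for CANX, and CANX turned to 0.02 with equal totals. The members' median was -0.23 and that of all genes -0.09. With equal totals the medians were -0.12 for the members and 0.02 for all genes. After subtraction of the all-gene median, the median of the members was -0.15. The ERCC RNAs ranged from -0.39 to 0.10, and only HSPA5 lay below their lowest value. The 5th percentile of all genes was -0.38, close to that value. For oxamate+lactate against control, 0 members were 1.5-fold higher or lower, against 2.99% and 3.07% of all genes. The median was 0.14 for the members and -0.01 for all genes. CALR and MANF lay above the highest ERCC ratio of 0.39, at percentiles 93.1 and 92.7 of all genes. The 3 comparisons share libraries in pairs and are not independent.

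**Figure D3:**
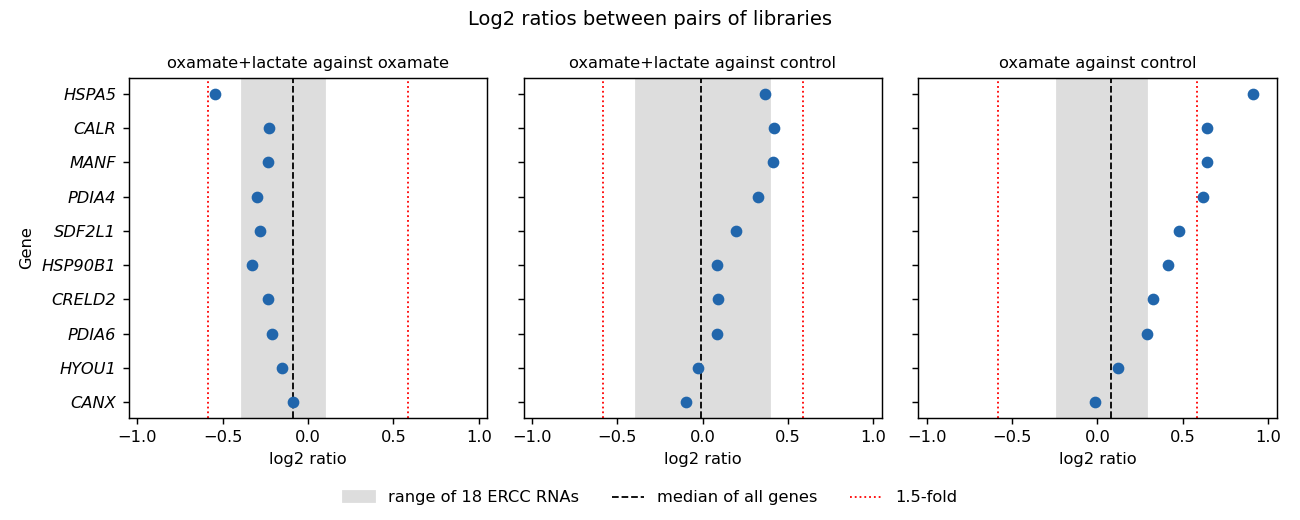
Log2 ratios of the 10 genes (points) in the 3 comparisons, ordered by oxamate against control. Grey is the range of the 18 ERCC RNAs, the dashed line the median of all genes and the dotted lines 1.5-fold; 4 genes lie past a dotted line for oxamate against control and none in the other panels.

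Levels of different genes were compared only after division by the length of the GENCODE 29 principal transcript, as normalized counts per kilobase. CALR had the highest such level in each library, at 4820 in oxamate+lactate, 5640 in oxamate and 3600 in control. CRELD2 had the lowest, at 205 in oxamate+lactate, 241 in oxamate and 192 in control. HSPA5 stood at 583 in oxamate+lactate, 851 in oxamate and 452 in control. In oxamate+lactate it stood beside PDIA6 at 590 and HYOU1 at 583. In oxamate it was above both, with PDIA6 at 683 and HYOU1 at 647, and in control below both, with PDIA6 at 557 and HYOU1 at 595. With 1 library each, neighbours in these orders cannot be separated.

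Transcript GC content went with the ratios across genes (Spearman correlation 0.31 for oxamate against control over 10736 genes, which share the same libraries). The members ranged from 41.6% GC in CANX to 65.5% in SDF2L1, around the median of 48.9% for all genes. For a GC adjustment, the median of genes in the same of 10 bins of GC content was subtracted and the all-gene median added back. The ratio of HSPA5 (46.0% GC) was then 0.97 and that of SDF2L1 was 0.30. Values relative to GC content elsewhere are on this scale, where all genes keep their median of 0.08 for oxamate against control. The members' median was then 0.43. Whether GC content has a part in these differences beyond that was not tested.

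The other genes of the secretory pathway and of the chaperone systems were described by 12 lists. The ER chaperone median of 0.45 for oxamate against control stands beside them. Counts past 1.5-fold in these lists are as deposited. They were not recounted under the rescalings that changed the members' count, which can move genes near that fold across it. Of all genes, 7.48% were at least 1.5-fold higher and 3.98% lower. None of the genes over the floor passed 1.5-fold in either direction among the ER co-chaperones (0 of 11, median -0.08), the other disulphide isomerases and oxidases (0 of 18, median 0.09) and the prolyl isomerases (0 of 5, median 0.17). The same held for N-glycan transfer, trimming and the lectin cycle (0 of 17, median 0.00), translocation into the ER (0 of 17, median 0.00), ER-associated degradation (0 of 23, median 0.01) and the KDEL receptors, which return escaped chaperones (0 of 2, median 0.07). Of the ER calcium genes, 1 of 12 was at least 1.5-fold higher and 0 were lower (median 0.15); it was RCN1 (reticulocalbin), exactly at the limit.

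Among 5 selected partners and relatives of the chaperones, log2 ratios of oxamate against control ran from -0.21 to 0.51, a range that depends on the selection. All 11 ER co-chaperones ran from -0.29 to 0.51. DNAJB11, the J-domain partner of BiP and SDF2L1, had 530 in oxamate+lactate, 574 in oxamate and 552 in control (0.06). SDF2, the relative of SDF2L1, had 169 in oxamate+lactate, 151 in oxamate and 175 in control (-0.21). CNPY3, a co-chaperone of HSP90B1, was the highest of its list, with 505 in oxamate+lactate, 581 in oxamate and 408 in control (0.51). GANAB, the catalytic subunit of the glucosidase that trims clients for CALR and CANX, had 3542 in oxamate+lactate, 3655 in oxamate and 3933 in control (-0.11). PDIA3, the isomerase that works with CALR and CANX, had 1689 in oxamate+lactate, 1868 in oxamate and 1480 in control (0.34).

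The 2 lowest genes of the degradation list were EDEM1 and HERPUD1. EDEM1, a mannose-trimming factor, had 2411 in oxamate+lactate, 1935 in oxamate and 2776 in control (-0.52). HERPUD1, a scaffold of the degradation complex, had 917 in oxamate+lactate, 788 in oxamate and 1066 in control (-0.44). In both the oxamate library was the lowest of the 3. The 2 highest genes of the list had oxamate as the highest library, as HSPA5 did. UBE2J2, a ubiquitin-conjugating enzyme, had 756 in oxamate+lactate, 819 in oxamate and 609 in control (0.43). EDEM3, a relative of EDEM1, had 1132 in oxamate+lactate, 1258 in oxamate and 968 in control (0.38).

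Of the sensors and transducers of the unfolded protein response, 0 of 10 were 1.5-fold higher in oxamate than in control and 1 was lower (median 0.15). ATF6 had 901 in oxamate+lactate, 959 in oxamate and 868 in control (0.14). XBP1 had 310 in oxamate+lactate, 333 in oxamate and 337 in control (-0.02). The lower gene was MBTPS2, a protease that releases ATF6 from the membrane, with 124 in oxamate+lactate, 118 in oxamate and 190 in control (-0.68). MBTPS1, the protease that cuts ATF6 before it, had 1686 in oxamate+lactate, 1893 in oxamate and 1448 in control (0.39). The highest ratio of the list was that of WFS1, an ER membrane protein, at 0.42, with 96 in oxamate+lactate, 138 in oxamate and 103 in control. Splicing of XBP1 RNA, cleavage of ATF6 and activity of PERK cannot be read from these values. In the PERK and ATF4 arm, 0 of 10 genes were 1.5-fold higher and 4 were lower (median -0.39), against 7.48% and 3.98% of all genes. ASNS was lowest at -2.09, while ATF4 had -0.39 and DDIT3 -0.73. The highest genes were PPP1R15B at 0.30 and CHAC1 at 0.13.

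HSPA5 and HSP90B1 can be set beside their counterparts elsewhere in the cell. The cytosolic HSP70 and HSP90 system had a median of 0.54 for oxamate against control and -0.40 for oxamate+lactate against oxamate. For oxamate against control, 6 of its 12 genes were at least 1.5-fold higher and 0 lower, against 7.48% and 3.98% of all genes. Of the 6, DNAJB1 (0.60), HSPH1 (0.67) and HSP90AB1 (0.68) lay closest to that fold. Counts here too are as deposited and were not recounted under other scalings. Mitochondrial chaperones had a median of 0.10 for oxamate against control, with 0 of 6 past 1.5-fold in either direction. For 1 HSP70 of each of the 3 compartments, the ratios were 0.91 (HSPA5, ER), 1.25 (HSPA8, cytosol) and -0.48 (HSPA9, mitochondria). Other listed HSPA genes over the floor had lower ratios than HSPA5 and HSPA8, at -0.08 (HSPA13, ER co-chaperone list), 0.33 (HSPA4) and 0.06 (HSPA4L, both cytosolic list). For HSP90s the ratios were 0.41 (HSP90B1, ER), 0.89 (HSP90AA1, cytosol), 0.68 (HSP90AB1, cytosol) and 0.19 (TRAP1, mitochondria). These differences between genes were not tested.

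For oxamate+lactate against oxamate, the ER chaperone median was -0.23 and that of the PERK and ATF4 arm was 0.29. In that arm 2 of 10 genes were at least 1.5-fold higher and 0 lower, against 0.252% and 0.903% of all genes. In the cytosolic system 0 of 12 were higher and 1 was lower, HSPA8 at -1.01. In the other 10 lists no gene over the floor passed 1.5-fold, and medians ran from -0.15 for the mitochondrial chaperones to 0.03 for the ER co-chaperones. The oxamate library enters this comparison and the one against control, so their directions are tied.

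**Figure D4:**
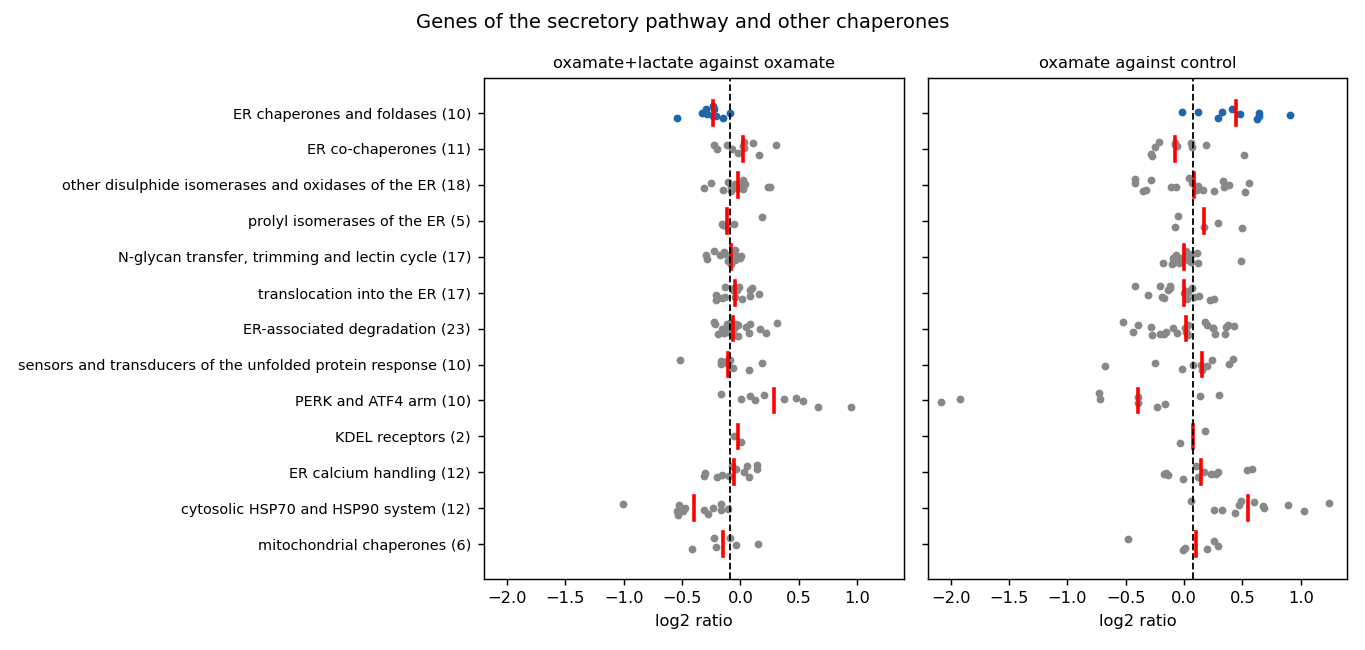
Log2 ratios of the genes over the floor in each list (points, number of genes in brackets), for oxamate+lactate against oxamate and for oxamate against control. Red bars are list medians and the dashed line is the median of all genes; the ER chaperones (blue) have medians of -0.23 and 0.45, the PERK and ATF4 arm 0.29 and -0.39.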

How the data were processed

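Libraries of polyadenylated RNA from 3 Jurkat cultures, 1 per condition, were made with the NEBNext Ultra kit, per the labels' protocols; this kit does not keep strand. The submitters' processing notes name STAR 2.7.1a, HTSeq 0.11.2, FastQC 0.11.9 and hg19, without roles. The authors deposited 1 table of normalized counts (17365 rows, 36 of them ERCC). The values are whole numbers and were treated as a score rounded by the authors after normalization, so no count model was fitted. The normalization, the gene filter and the annotation are not stated in the sources used here, and the depth is unknown. Normalization can absorb or leave a shift shared by all genes.

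Ratios were log2((value + 1)/(value + 1)), with pandas 2.3.3 in Python 3.11.15, and the pseudocount of 1 slightly shrinks ratios of low genes. Genes with a mean of at least 50 over the 3 libraries formed the background; 1.5-fold marks a difference, with no test. The computation was checked on simulated libraries with known folds and no spread between cultures. That checks the calculation and not the error of the ratios given here. Alternatives were other pseudocounts, floors and scalings. GC content and transcript lengths came from GENCODE 29 principal transcripts (87.3% of genes over the floor matched by symbol), and overlaps from its exons. Promoters came from RefSeq (GRCh38.p14), matched by symbol for all 10 genes. The rule for named genes took the 10 members and the 2 highest and 2 lowest of each list for oxamate against control. It also took the 5 genes nearest to HSPA5, and a selection of all these is given. ATF6, XBP1, ATF4, DDIT3, DNAJB11, SDF2, PDIA3, HSP90AB1, TRAP1, FICD, SERP1, HSPA13 and HSPA4 were added for their roles after their values were seen. HSPH1 and DNAJB1 were added for their nearness to 1.5-fold. The members and lists were chosen with earlier results of these data known.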

Additional observations from a re-analysis of the deposited data

How the results depend on the processing

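The count of ER chaperones at least 1.5-fold higher in oxamate than in control was 4 as deposited and 1 with columns scaled to equal totals, 1 after subtraction of the all-gene median ratio and 1 relative to genes in the same of 10 bins of GC content, the last chosen after seeing the data. MANF, CALR and PDIA4 lie so close to 1.5-fold that these shifts move them across it. Equal totals moved the median of all genes from 0.08 to -0.02 for oxamate against control and from -0.09 to 0.02 for oxamate+lactate against oxamate. All other medians and counts of the list (63 of 66 values) stayed within 1 SD of the ERCC ratios or within 1.5 times. The settings were those 3 rescalings, another pseudocount (10), other floors (none or 200), equal ERCC sums and the mean in place of the median. Many of the 63 values were counts that stayed at 0 under every setting. Of 150 ratios of single members, 1 moved by more than that SD: SDF2L1 for oxamate against control, to 0.30 relative to genes of like GC content. CANX changed sign in both comparisons with oxamate, and HYOU1 in oxamate+lactate against control, which with equal ERCC sums put 9 members between oxamate and control, against 8 as deposited. The oxamate library had the highest value for 9 members under each scaling and for 10 after the GC adjustment, which adds back the all-gene median. HYOU1 counted among those 10 at 0.04 for oxamate against control, below that median of 0.08. The share of all genes ran from 32% to 52.1%. No paired analysis was possible because each condition has 1 library. Depth is unknown, and with no replicate the spread between cultures is too.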

Other observations

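Genes other than the 10 chaperones whose promoter windows held ERSE or ERSE-II were picked on sequence alone, after the chaperone values were known. In the table there were 21, of which 18 had a mean of at least 50. Their median log2 ratio of oxamate against control was 0.00, from -0.44 for HERPUD1 to 0.46 for ZNF143. Of the 18, 0 were at least 1.5-fold higher or lower, against 7.48% and 3.98% of all genes. Among them, XBP1 had -0.02, FICD, an enzyme that modifies BiP, had 156 in oxamate+lactate, 180 in oxamate and 158 in control (0.19), and SERP1, a translocon-associated stress protein, had 1738 in oxamate+lactate, 1754 in oxamate and 2086 in control (-0.25). The 8 chaperones with either element ranged from -0.01 (CANX) to 0.91 (HSPA5), and PDIA4 and MANF, with neither, had 0.62 and 0.64.

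The genes nearest to HSPA5 in the plane of the log2 ratios of oxamate against control and of oxamate+lactate against oxamate, among genes with a mean of at least 500, were HSP90AA1, RP11-1055B8.7, RBM19, TMSB10 and TTC28, at distances of 0.0292 to 0.0666 log2 units. HSP90AA1, the inducible cytosolic HSP90, had ratios of 0.89 and -0.52. TMSB10, which binds actin monomers, had 1281 in oxamate+lactate, 1813 in oxamate and 989 in control. The measure rests on 3 libraries.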
